A study of Musa acuminata AAA Group with 4 samples.

Results

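Leucine-rich repeat receptors and related proteins were described in Cavendish banana grown on a complete or a low-nitrogen solution. They were the genes of the authors' deposited tables of low-nitrogen differences, 1 table for leaf and 1 for root, whose description named a leucine-rich repeat receptor, CLAVATA, BRI1, a phytosulfokine receptor, a numbered receptor-like protein or STRUBBELIG, and did not name a lectin or disease resistance. This gave 81 genes among 3396 genes of either table and 31873 genes seen in any library. Of these, 59 were in the leaf table and 27 in the root table, with 5 in both. The tables themselves had been picked for a difference between the same libraries, so the low-nitrogen differences of the members are a description and carry no test.

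Leucine-rich repeat receptor kinases sit in the plasma membrane, with repeats outside the cell that bind a peptide, a steroid or a microbial molecule, a single membrane span and a kinase inside the cell. In Arabidopsis and other plants, binding of the ligand brings the receptor together with a co-receptor, and the signal passes through cytoplasmic kinases, MAP kinase cascades and an oxidative burst. The family is known for sensing brassinosteroids, growth peptides, microbes and wounding. Receptor-like proteins of the same kind lack the kinase, and leucine-rich repeat extensins are cell wall proteins with neither a kinase nor a membrane span.

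The plants were Musa acuminata AAA Group, cv. Cavendish, fixed in clean sand and kept for 60 days on either Hoagland complete solution (normal N) or a solution low in nitrogen (low N). The aboveground sample, called leaf here, held leaves together with pseudostems, and the root sample held the underground organs. Each of the 4 groups, normal-N leaf, low-N leaf, normal-N root and low-N root, had 1 library, and whether a library pooled plants is not given in the sources used here. None of the differences below therefore has a replicate check.

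Expected fragments on genes came to between 4144048 and 4408992 a library, so depth differed little between them. Antenna, photosystem and small RuBisCO genes of the tables (31 genes) summed to 54865 and 22488 FPKM in normal-N and low-N leaf and to 309 and 171 FPKM in the roots, with 11 and 9 of them listed at 0 in the roots, and 30 were lower in low-N leaf. Of the root sums, the small RuBisCO gene Ma07_g15870 of the root table alone gave 224 and 81.6 FPKM. In normal-N and low-N leaf it was at 1.89 and 0.95 FPKM. FPKM (fragments per kilobase, relative to all fragments of the library) allows for gene length, so levels can be compared between genes. Between libraries they also depend on the scaling. A gene absent from a library's list was read as 0. Levels below are in FPKM and, where 4 are given, stand in the order normal-N leaf, low-N leaf, normal-N root and low-N root.

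Most members were higher in low-N leaf than in normal-N leaf, and the root showed no such common direction. A gene was counted as higher or lower when log2 of (FPKM + 1) differed by at least 1 and the level was 2 FPKM or more in the higher of the libraries compared. In leaf, 65 of the 81 members reached that level, 52 were higher and 3 were lower, with a median log2 difference of 1.30. Among all 21715 genes at that level, 11.7% were higher and 6.7% lower, with a median of 0.12. In root, 52 members reached the level, 11 were higher and 9 were lower, with a median of 0.22, against 4.67% higher and 6.9% lower of 24476 genes and a median of -0.01. Without the 10 extensins, a set chosen after seeing the data, the root counts were 5 higher and 7 lower. Scaling by median ratios instead gave 39 members higher and 4 lower in leaf, with the median of all genes there at -0.09, and moved the share of higher genes among all called genes from 63.6% to 46.2%. Because the tables chose the members by these same contrasts, nothing is read from these shares.

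The leaf direction of the members can be set beside that of the table they came from, again as a description. The authors' deposited table for leaf listed 57 members as higher and 2 as lower, and of its 2225 genes 67.5% were higher and 32.5% lower. The authors' deposited table for root listed 16 members as higher and 11 as lower, and of its 1354 genes 39.4% were higher and 60.6% lower. In these bulk samples, fewer cells of a type and less RNA per cell cannot be told apart, and leaf and pseudostem were sampled together. A different share of either organ in the 2 leaf libraries was not tested.

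**Figure D1:**
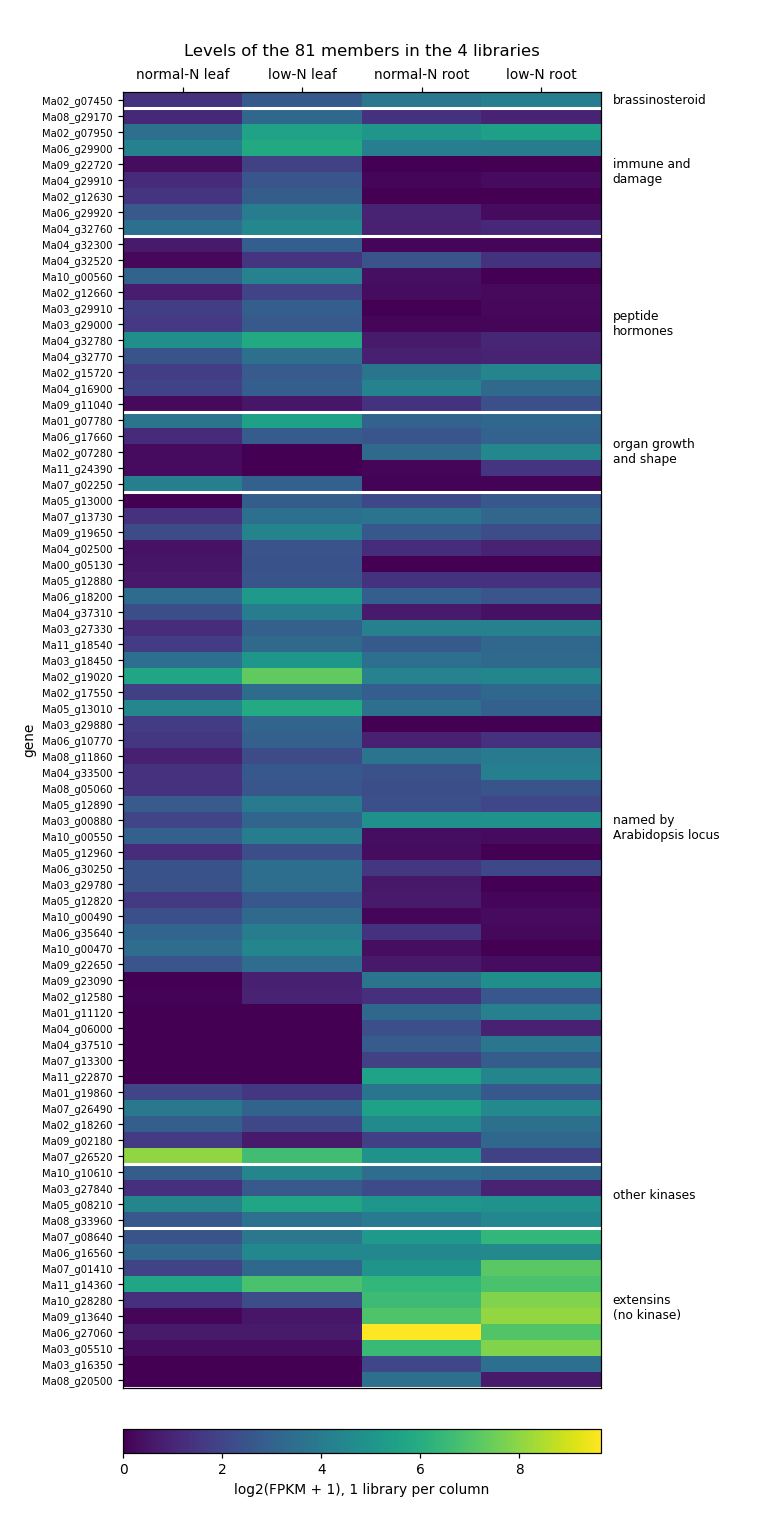
Level of each of the 81 members, 1 row per gene grouped by role, in the 4 libraries (columns), as log2 of (FPKM + 1) on the color scale. Low-N leaf is the highest library for 45 members, and the extensins at the bottom are brightest in the 2 root columns, up to 796 FPKM.

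Low-N leaf was the library with the highest level for 45 of the 81 members (55.6%). It was so for 31.2% of all genes of the tables and 23.5% of all genes with 2 FPKM or more in a library. The tables chose the members by contrasts of these same libraries, so nothing is read from this share. Low-N root was the highest for 23, normal-N root for 11 and normal-N leaf for 2, which were At1g51880 (Ma07_g26520) and ERECTA (Ma07_g02250). Normal-N leaf was the lowest library for 39 members. The members' FPKM summed to 689 and 1239 in the leaves and to 1837 and 1740 in the roots, normal N first. Without the 10 extensins the FPKM sums were 622, 1074, 543 and 523, so that most of the root total came from the extensins.

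The immune and damage receptors were 8 genes, all in the leaf table as higher, and 7 of them were higher by the size rule. SOBIR1, in Arabidopsis and tomato the adaptor kinase that receptor-like proteins need in order to signal, was represented by 4 genes, and all 4 were higher in low-N leaf. The most abundant, Ma06_g29900, was at 18.0, 57.2, 16.6 and 15.9 FPKM, which was 3.18-fold higher in low-N leaf (95% interval 2.54 to 4.02). Ma02_g07950 was at 10.9, 45.4, 33.2 and 43.4 FPKM, 4.15-fold higher in low-N leaf (3.28 to 5.29). Folds are ratios of expected counts scaled by library totals, and their exact Clopper-Pearson intervals cover counting error only. Low-N leaf thus reached the level of the roots for Ma02_g07950 and stood above both roots for Ma06_g29900. The third gene, Ma08_g29170, was at 1.15, 8.52, 1.63 and 0.91 FPKM, 7.37-fold higher in low-N leaf (3.13 to 21.2). Ma06_g29920 was at 5.53, 15.6, 0.90 and 0.23 FPKM, 2.83-fold higher (1.87 to 4.37). The 4 SOBIR1 genes thus shared the leaf direction and differed in root, where only 2 of them reached 2 FPKM.

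FLS2, the receptor of bacterial flagellin in Arabidopsis, gave its name to 2 members that were low in every library. Ma04_g29910 was at 1.23, 4.81, 0.13 and 0.23 FPKM, 4.02-fold higher in low-N leaf (2.25 to 7.62), and Ma09_g22720 was at 0.25 and 2.69 FPKM in leaf and listed at 0 in both roots. PEPR1, which binds the wound peptides called Peps in Arabidopsis, was at 1.81 and 6.25 FPKM in leaf for Ma02_g12630 and listed at 0 in both roots, 3.45-fold higher in low-N leaf (2.15 to 5.76). Receptor-like protein 12 (Ma04_g32760), of the class without a kinase, was at 10.4, 21.0, 0.87 and 1.15 FPKM. These 4 genes had their 2 highest levels in the leaf libraries.

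The receptors of peptide hormones were 11 genes, of which 9 reached the level for counting in leaf. Of those, 8 were higher and 0 lower, against 11.7% higher and 6.7% lower of all genes. The authors' deposited tables listed all 4 phytosulfokine receptors, which in Arabidopsis bind a short sulfated growth peptide, as higher in leaf and 2 of them as lower in root. Phytosulfokine receptor 1-like Ma04_g16900 was at 2.88, 6.33, 19.0 and 9.14 FPKM. It was 2.19-fold higher in low-N leaf (1.48 to 3.29) and 2.08-fold lower in low-N root (1.69 to 2.59). Its relative Ma04_g32520 was at 0.15, 1.80, 4.57 and 1.69 FPKM, 12.1-fold higher in leaf (2.99 to 105) and 2.72-fold lower in root (1.68 to 4.54). Both genes were thus highest in normal-N root, and their leaf and root levels lay closer together under low N than under normal N. The pair's other relatives did not share the root direction. Ma04_g32300 was at 0.64, 6.32, 0.12 and 0.12 FPKM, and phytosulfokine receptor 2 (Ma02_g15720) at 2.39, 5.82, 12.4 and 19.9 FPKM, 2.43-fold higher in low-N leaf (1.58 to 3.82) and 1.61-fold higher in low-N root (1.32 to 1.96).

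GSO1 and GSO2, which in Arabidopsis bind peptides that guide the Casparian strip of the root and the cuticle of the embryo, gave their names to 5 members. Their levels here were mostly in leaf. GSO2 Ma04_g32780 was at 27.0, 57.3, 0.60 and 1.07 FPKM, 2.12-fold higher in low-N leaf (1.85 to 2.44), and at normal N its leaf level was 45.1-fold its root level (21.6 to 113). Ma04_g32770 was at 4.68, 10.7, 0.81 and 0.88 FPKM, Ma03_g29910 at 2.43, 6.49, 0 and 0.15, and Ma03_g29000 at 2.07, 5.48, 0.13 and 0.10. Among the 5, the GSO1 gene Ma09_g11040 of the root table alone was highest in root, at 0.19, 0.51, 1.68 and 4.08 FPKM, 2.42-fold higher in low-N root (1.54 to 3.90).

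CLAVATA2, a receptor-like protein of the pathway that restrains stem cell number in shoot meristems, was at 7.33, 18.4, 0.32 and 0 FPKM for Ma10_g00560, 2.48-fold higher in low-N leaf (1.63 to 3.87). FASCIATED EAR2, its maize counterpart, named Ma02_g12660, at 0.70, 2.95, 0.26 and 0.17 FPKM. FLORAL ORGAN NUMBER1, the rice counterpart of the kinase CLAVATA1, named Ma03_g27840, at 1.50, 5.53, 3.65 and 0.94 FPKM. It was 3.69-fold higher in low-N leaf (1.91 to 7.66) and 3.89-fold lower in low-N root (1.75 to 9.79), and it is not among the 11 genes counted above, because its description lacks their search words. All 3 genes were highest in low-N leaf.

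A further 3 kinases with names of their own were higher in low-N leaf and differed in root by less than the size limit. EXS, in Arabidopsis a receptor of cell fate in the anther, named Ma10_g10610, at 6.16, 19.9, 9.82 and 8.41 FPKM. MRH1, known from root hairs in Arabidopsis, named Ma05_g08210, at 19.9, 50.6, 32.1 and 28.2 FPKM, 2.53-fold higher in low-N leaf (2.09 to 3.08). RKF3 named Ma08_g33960, at 5.19, 11.5, 15.1 and 21.3 FPKM.

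The only brassinosteroid receptor by name was BRI1-like 3 (Ma02_g07450), of a group that binds brassinosteroids in Arabidopsis. Its level was 1.59, 5.63, 13.3 and 16.6 FPKM, 3.52-fold higher in low-N leaf (2.21 to 5.79) and 1.25-fold higher in low-N root (1.04 to 1.50). Both roots stood above both leaves.

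The members named for organ growth and shape were 5 genes without a common direction. ERECTA (Ma07_g02250), which in Arabidopsis binds EPF and EPFL peptides in stem growth and stomatal patterning, was at 16.6, 6.85, 0.08 and 0.08 FPKM, 2.42-fold lower in low-N leaf (1.87 to 3.16). It was 1 of the 2 members that the authors' deposited table lists as lower in leaf. The 2 genes named after IMK2, a kinase described as probably inactive, were higher there, with Ma01_g07780 at 12.2, 44.4, 7.23 and 8.31 FPKM, 3.66-fold higher in low-N leaf (2.59 to 5.28). STRUBBELIG, in Arabidopsis a receptor of tissue shape, gave its name to 2 members found in root. STRUBBELIG-RECEPTOR FAMILY 8-like (Ma02_g07280) was at 0.22, 0, 9.12 and 21.1 FPKM, 2.31-fold higher in low-N root (1.79 to 2.99). STRUBBELIG-RECEPTOR FAMILY 3-like (Ma11_g24390) was at 0.23, 0, 0.11 and 1.81 FPKM.

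Of the 42 members named by an Arabidopsis locus, 35 reached the level for counting in leaf and 28 in root. In low-N leaf 26 were higher and 2 lower, against 11.7% and 6.7% of all genes. In low-N root 4 were higher and 5 lower, against 4.67% and 6.9%. The largest family of these 42 members was named after At1g35710 and At4g08850, the second of which is MIK2, a receptor of SCOOP peptides in Arabidopsis. Of its 14 genes, 13 reached the level for counting in leaf and 10 of those were higher. Ma09_g19650 was at 3.65, 18.8, 5.35 and 3.81 FPKM, 5.15-fold higher in low-N leaf (3.86 to 6.99). Ma05_g13010 was at 20.9, 58.3, 10.8 and 6.81 FPKM, 2.83-fold higher (1.87 to 4.37). Ma05_g13000 had 0 counts in normal-N leaf and was at 6.21, 3.26 and 5.24 FPKM in the other libraries, so that it was at least 6.03-fold higher in low-N leaf, counting 3 fragments in the library at 0. Within the family, only Ma02_g12580 was higher by size in low-N root, at 0.08, 0.89, 1.52 and 5.07 FPKM.

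The most abundant member with a kinase in low-N leaf was At2g16250 (Ma02_g19020), at 51.6, 154, 18.5 and 20.3 FPKM and 2.98-fold higher in low-N leaf (2.71 to 3.28). The 2 other genes of that name were higher in low-N leaf too, with Ma03_g27330 at 1.31, 6.76, 17.5 and 17.4 FPKM. This relative stood highest in the roots, unlike Ma02_g19020. Ma06_g18200, named after At1g74360, which is the nematode-sensing receptor NILR1 in Arabidopsis, was at 9.72, 35.7, 6.29 and 4.87 FPKM, 3.66-fold higher in low-N leaf (3.04 to 4.44). Ma03_g18450, named after the vascular kinase PXC3 (At2g41820), was at 10.4, 33.6, 10.6 and 9.07 FPKM, 3.23-fold higher (2.56 to 4.11). Ma07_g13730, named after At2g24230, was at 1.57, 10.6, 12.2 and 8.10 FPKM, 6.73-fold higher in low-N leaf (3.73 to 13.1). In root these 4 genes of different names differed by less than the size limit.

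The receptors whose Arabidopsis namesakes carry a malectin-like domain beside the repeats (At1g51880, At1g05700, At2g19210, At2g19230, At2g28960 and At2g14440) were mostly lower in low-N root. The authors' deposited table for root listed 5 of these 7 genes as lower and 0 as higher. Of all its genes, 60.6% were lower and 39.4% higher. By size, 4 of the group's 6 genes at the level for counting were lower, against 6.9% of all genes. The root table had chosen the 5 listed genes by this same contrast, so nothing is read from these counts. Ma07_g26520, named after At1g51880, was the most abundant member of all in normal-N leaf, at 259.7, 102, 29.4 and 2.73 FPKM. It was 2.54-fold lower in low-N leaf (2.38 to 2.72) and 10.8-fold lower in low-N root (7.59 to 15.8), and no other member was lower in both tables. At2g19230 (Ma11_g22870) was listed at 0 in both leaves and was at 47.6 and 19.8 FPKM in root, 2.40-fold lower under low N (1.97 to 2.94). Its namesake Ma01_g19860 was at 3.09, 1.99, 12.4 and 5.34 FPKM. At2g19210 (Ma07_g26490) was at 13.4, 7.38, 44.8 and 22.2 FPKM, and At1g05700 (Ma02_g18260) at 6.63, 3.25, 23.5 and 10.8 FPKM, so that all 5 had the lower value under low N in each tissue in which they were detected. In leaf the difference of Ma01_g19860 was within counting error (1.63-fold, 0.728 to 3.81). Of the group's 3 genes in the leaf table, the 2 other than Ma07_g26520 were higher in low-N leaf, with At2g28960 (Ma04_g02500) at 0.37, 4.56, 1.39 and 0.92 FPKM and At2g14440 (Ma11_g18540) at 2.30, 9.10, 5.64 and 8.52.

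Other members of the root table included At4g20940 (Ma04_g33500), which is GHR1, a kinase of stomatal closure in Arabidopsis, at 1.66, 5.25, 4.25 and 17.0 FPKM. It was 3.99-fold higher in low-N root (2.39 to 6.98) and 3.16-fold higher in low-N leaf (1.30 to 8.75), although only the root table held it. At4g37250 (Ma09_g23090) was at 0, 0.79, 12.1 and 27.2 FPKM, 2.24-fold higher in low-N root (1.81 to 2.77). At2g24130 (Ma04_g06000), detected in root alone, was at 4.08 and 0.83 FPKM there, 4.93-fold lower under low N (2.55 to 10.4). The kinase At3g03770 (Ma09_g02180), described as inactive, was at 2.26, 0.61, 2.59 and 8.44 FPKM, 3.65-fold lower in low-N leaf (1.43 to 11.0) and 3.25-fold higher in low-N root (2.09 to 5.20). At3g47570, of the Arabidopsis subfamily that also holds FLS2, named 4 members, of which Ma06_g35640 was at 7.90, 16.2, 1.66 and 0.14 FPKM, 2.04-fold higher in low-N leaf (1.68 to 2.49) and 11.7-fold lower in low-N root (3.69 to 59.5).

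**Figure D2:**
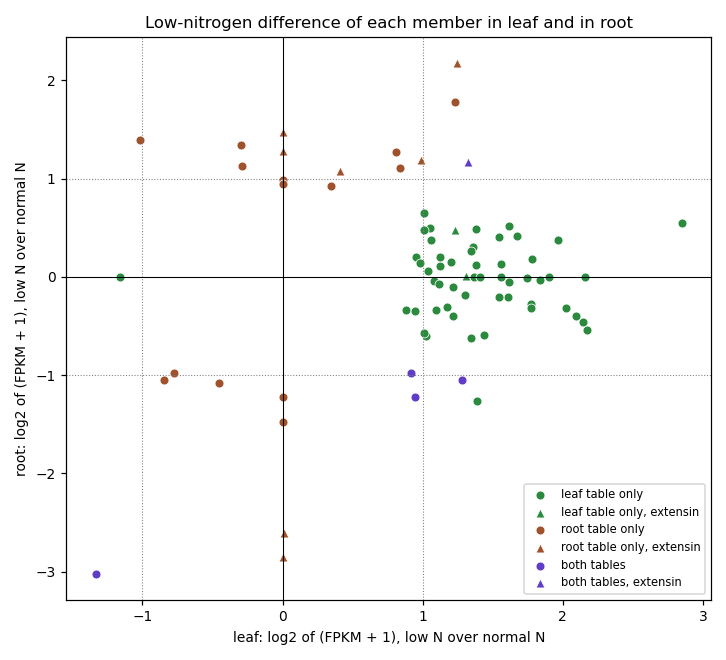
Each point is 1 of the 81 members, with its low-N over normal-N difference in leaf (horizontal) and root (vertical) as log2 of (FPKM + 1), colored by the deposited table that held it and triangular for extensins, with dotted lines at the size limit of 1. Leaf-table members form a cloud at the right around a root value near 0, with a median of 0.12 over the 31 at the level for counting in root. At the lower left, Ma07_g26520 alone is past the limit in both tissues.

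The root difference of the 59 leaf-table members, and the leaf difference of the 27 root-table members, were not used to choose those members. Of the leaf-table members, 31 reached the level for counting in root, 1 was higher and 3 were lower, with a median of 0.12, close to the 3.96% higher and 7.97% lower of all leaf-table genes. The higher one was the extensin Ma07_g08640, and the lower ones were Ma07_g26520, Ma04_g32520 and Ma03_g27840. Of the root-table members, 11 reached the level in leaf, 3 were higher and 2 were lower, against 18.9% and 16.2% of the table's genes. The 5 members of both tables were the 2 phytosulfokine receptors Ma04_g16900 and Ma04_g32520, Ma06_g35640, Ma07_g26520 and the extensin Ma07_g08640. In 3 of them the leaf value was higher and the root value lower under low N, in 1 both were lower and in the extensin both were higher.

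The extensins were 10 genes, mostly of root. Proteins of this class lie in the cell wall and, in Arabidopsis, bind RALF peptides with their repeats and take part in root hair and pollen tube growth. In root, 6 were higher and 2 lower by size under low N, with a median of 1.13, and in leaf 4 of the 5 at the level for counting were higher. Among all genes at that level, 4.67% were higher and 6.9% lower in root, and 11.7% were higher in leaf. All extensins past the size limit in root were in the root table, which this contrast had chosen. Nothing is therefore read from these counts. The most abundant member in any library was Ma06_g27060, described as pollen-specific extensin-like 3, at 0.60, 0.61, 796 and 129.7 FPKM. It was 6.15-fold lower in low-N root (5.57 to 6.80). Ma08_g20500, described as extensin-like 6, was detected in root alone, at 10.7 and 0.61 FPKM, 17.4-fold lower under low N (5.63 to 87.1). Both genes had whole expected counts in every library.

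The 6 extensins that were higher in low-N root spanned a wide range of levels. Ma07_g01410 was at 2.95, 8.34, 30.5 and 142 FPKM, 4.65-fold higher in low-N root (3.92 to 5.54). In this gene and in the 3 that follow, both leaves stood below both roots. Ma09_g13640 was at 0.12, 0.49, 126 and 268 FPKM, 2.12-fold higher there (1.97 to 2.28). Ma03_g05510 stood at 0.25, 0.25, 90.5 and 222, 2.44-fold higher (2.25 to 2.66). Ma10_g28280 was at 1.44, 3.83, 97.7 and 225 FPKM, 2.30-fold higher (2.10 to 2.51). Ma07_g08640 was at 4.68, 13.2, 36.2 and 82.9 FPKM, higher under low N in leaf (2.80-fold, 1.86 to 4.31) and in root (2.29-fold, 1.98 to 2.65). Ma03_g16350 was listed at 0 in leaf and was at 3.15 and 10.5 FPKM in root. Ma11_g14360, at 49.3, 117, 82.1 and 115 FPKM, and Ma06_g16560, at 8.13, 21.6, 21.8 and 22.0 FPKM, were higher in low-N leaf by size and not in root. In these 2 genes low-N leaf stood level with low-N root.

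**Figure D3:**
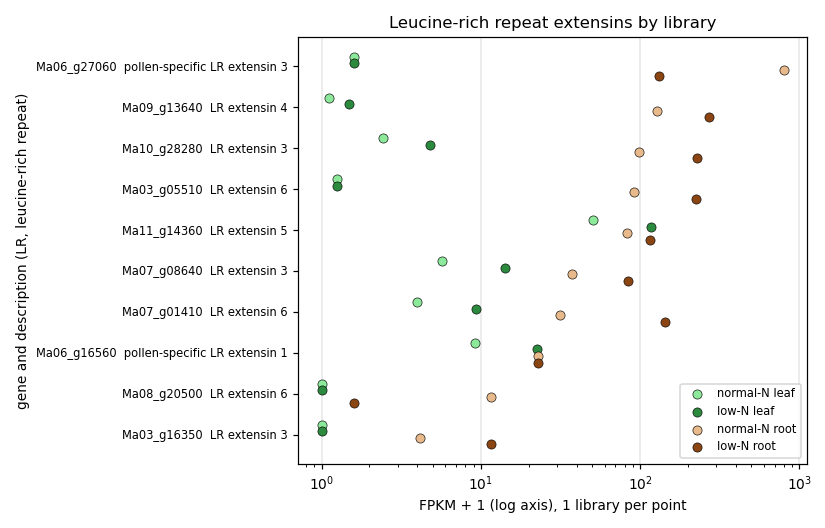
Level of the 10 extensins in each of the 4 libraries, as FPKM + 1 on a log axis, 1 point per library. Ma06_g27060 has its normal-N root point at 796 FPKM, far right of its low-N root point at 129.7, while in 6 other genes the dark low-N root point lies right of the light one by more than the size limit.

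Markers of root tissues also differed between the root libraries. Of 18 genes for laccases, fasciclin-like proteins and secondary-wall cellulose synthases, a list for lignified vascular tissue, 8 were higher and 10 lower in low-N root. They summed to 1141 and 1149 FPKM in the roots and to 36.8 and 18.6 FPKM in leaf. The cellulose synthases were all lower in low-N root, with Ma05_g15620 at 78.7 and 6.90 FPKM, Ma09_g05430 at 61.5 and 6.12 and Ma06_g33500 at 40.6 and 9.10. Laccases and fasciclin-like genes went both ways, so the level sum hides opposite differences. Of 14 genes for CASP-like, Casparian strip membrane and dirigent proteins, 4 were higher and 7 lower in low-N root by size. They summed to 625 and 352 FPKM in the roots and to 30.3 and 60.8 FPKM in leaf. All 7 lower genes were dirigent proteins. The 4 higher ones were CASP-like Ma03_g03060, at 7.81 and 27.8 FPKM in root, CASP-like Ma07_g08000, at 13.6 and 54.5, Casparian strip membrane Ma08_g07640, at 3.75 and 16.9, and dirigent Ma03_g22920, at 21.1 and 59.7. In low-N leaf, 7 of 11 histone and cyclin genes, a list for dividing tissue, were higher and 0 lower, all 11 summing to 346 and 787 FPKM in leaf and to 974 and 917 FPKM in root. All 7 were histones, and the cyclins were not higher, with cyclin-B1-5-like (Ma00_g02400) at 5.02 and 3.11 FPKM in leaf, cyclin-D1-2-like (Ma09_g28820) at 0.27 and 0 and cyclin-D2-1-like (Ma07_g21470) listed at 0 in both leaves. Among 4 senescence genes, low-N leaf had 2 at a higher and 1 at a lower level, with sums of 115 and 253 FPKM in leaf and 13.9 and 11.8 FPKM in root. Each of these lists was drawn from the tables and so was picked for a difference. The part of tissue makeup in the members' differences was not tested.

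Leaf and root were then compared at each nitrogen level. The choice of members did not use this contrast at either level alone, although it shares its libraries with the contrasts that did. At normal N, 67 members reached the level for counting, 18 were higher in leaf and 33 lower, with a median log2 leaf over root of -0.98. Of all 25724 genes at that level 20.1% were higher in leaf and 42.2% lower, with a median of -0.63, and of the tables' genes 23.3% and 49.9%, with a median of -0.99. Under median-ratio scaling 23 members were higher and 29 lower, the median of all genes was -0.15, and the share of higher genes among all called genes moved from 32.3% to 44.8%. At low N, 77 members reached the level, 40 were higher in leaf and 25 lower, with a median of 1.15. Of all 25802 genes then at the level 22.8% were higher in leaf and 37.1% lower, with a median of -0.35, and of the tables' genes 34.7% and 35.6%, with a median of 0.09. No test was run on this difference between members and other genes. The change in this contrast from normal N to low N equals the leaf low-N difference minus the root one. The members were chosen through those differences, so nothing is read from that change. All 40 members higher in leaf at low N were members of the leaf table.

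**Figure D4:**
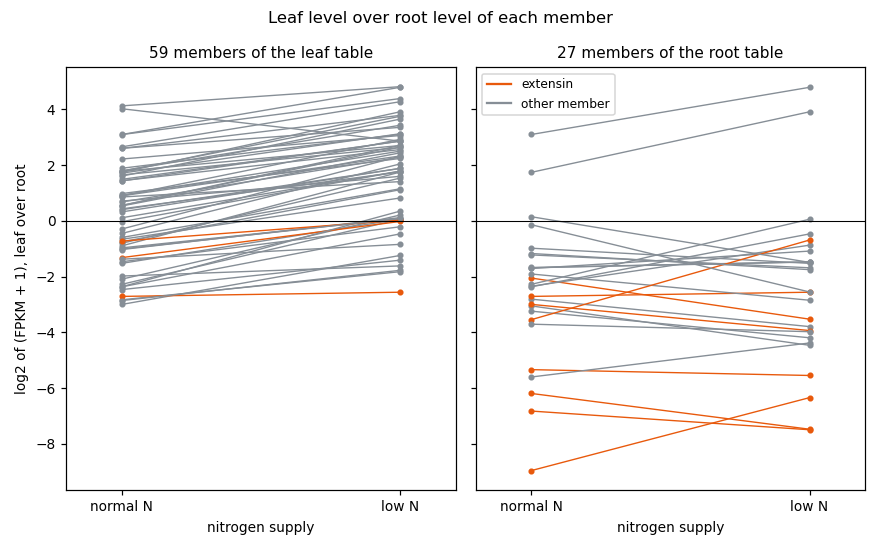
Leaf over root difference of each member as log2 of (FPKM + 1), joined between normal N and low N, for the 59 leaf-table members (left) and the 27 root-table members (right), with extensins in orange. Most lines of the left panel climb, and most of the right panel stay below 0. The left panel's median was 0.26 over the 48 members at the level for counting at normal N. At low N it was 1.96 over 58 members, so the 2 medians cover different genes.

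The leaf-table and root-table members differed in tissue, and so did all genes of the 2 tables. At normal N, 18 of 48 leaf-table members (37.5%) were higher in leaf than in root and 16 (33.3%) lower, against 31.4% and 36.3% of all leaf-table genes. At low N these were 40 of 58 (69%) and 6 (10.3%), against 45.6% and 19.3%. Of the root-table members 2 of 24 (8.33%) were higher and 20 (83.3%) lower in leaf at normal N, against 9.41% and 71.7% of all root-table genes. At low N these were 2 of 23 (8.7%) and 20 (87%), against 16.4% and 63.6%. The tables chose the members with these same libraries, so nothing is read from the shares. The members farthest to the leaf side at normal N among those with at least 5 FPKM included GSO2 Ma04_g32780 and ERECTA Ma07_g02250. The extensins Ma09_g13640, Ma03_g05510 and Ma10_g28280 were among those farthest to the root side.

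Many members belonged to groups of similar genes, which limits how well their reads can be told apart. Of the 81 members, 47 had an expected count that was not a whole number in at least 1 library, which is what fragments shared between genes give, and 34 had whole counts throughout. All genes of the At1g35710 and At4g08850 family other than Ma09_g19650 and Ma02_g12580, the SOBIR1 genes other than Ma08_g29170 and the GSO genes other than Ma09_g11040 had counts that were not whole, so their separate levels are uncertain. In 8 runs of gene IDs at most 100 apart stood 25 members. The longest, Ma05_g12820 to Ma05_g13010, held 6 members of the At1g35710 and At4g08850 family, and all 6 were higher in low-N leaf. IDs are the only sign of position used here, since none of the 81 IDs matched the reference gene table, and no coordinates are given. The members had a median coding length of 2100 bases, against 1041 for all genes.

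The wider signaling pathway was followed in lists of other genes of the tables, again picked for a difference. The authors' deposited table for leaf listed 80 of 107 other receptor kinases as higher and 1 as lower, and that for root 14 as higher and 14 as lower. Of all genes in the 2 tables, 67.5% were higher and 32.5% lower in leaf, and 39.4% higher and 60.6% lower in root. By the size rule 74 of the 91 at the level for counting were higher in low-N leaf and 1 lower, with a median of 1.37. Among all genes at that level 11.7% were higher and 6.7% lower. Because the tables chose these genes by the same contrasts, nothing is read from the counts of this list or its parts. The list mixes receptor kinases with other outer domains, leucine-rich repeat kinases outside the search words and a few cytoplasmic kinases. FERONIA (Ma09_g04790), a receptor of RALF peptides in Arabidopsis, was at 38.8, 102, 134 and 222 FPKM. The search words left out some leucine-rich repeat kinases whose description does not spell out the repeats, such as HSL1, HAIKU2 and TMK1. A search for some such names, chosen after their values were seen, found 22 of the 107 genes. Of these, the authors' deposited table for leaf listed 12 as higher and 0 as lower, and that for root 8 as higher and 3 as lower. That search was not complete, and left out, for example, the somatic embryogenesis receptor kinase 2-like gene Ma10_g18920. HSL1 Ma07_g14670 was at 66.2, 181, 111 and 102 FPKM.

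Of 4 peptide ligands, 2 were in the leaf table, 1 higher and 1 lower, and 2 were in the root table, both higher. The phytosulfokine precursor Ma06_g18680 was at 81.5, 18.0, 22.5 and 16.9 FPKM, lower in low-N leaf. Of the 4 phytosulfokine receptors, all listed as higher there in the authors' deposited table, 2 were higher by the size rule. The RALF gene Ma05_g29400 was listed at 0 in leaf and was at 26.0 and 84.3 FPKM in root, and RALF-like 34 (Ma06_g08860) was at 0.66, 0, 47.5 and 100.6 FPKM, both higher in low-N root. The RALF gene Ma03_g25230 was at 17.3, 44.7, 101 and 104 FPKM, higher in low-N leaf.

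Downstream genes were mostly higher in low-N leaf in the authors' deposited table, where 67.5% of all genes were higher and 32.5% lower. In that for root, 39.4% of all genes were higher and 60.6% lower. The lists were drawn from these tables, so nothing is read from their counts. All 5 respiratory burst oxidases, which make the superoxide of the oxidative burst, were higher in leaf and none was listed in root, with Ma06_g13290 at 2.36, 19.0, 35.2 and 39.0 FPKM. Of 10 genes of the MAP kinase search, 7 were higher and 0 lower in leaf, and 2 were higher and 1 lower in root. One of the 7, Ma05_g00330, is described as a MAPK-interacting protein and is no kinase of the cascade by name. MAP kinase 5 (Ma06_g34790) was at 61.4, 317, 93.9 and 172 FPKM, the highest of the list in low-N leaf. Of 4 receptor-like cytoplasmic kinases 3 were higher and 1 lower in leaf, and 2 of them, Ma05_g10380 and Ma00_g01310, are also among the 107 receptor kinases. The brassinosteroid search found 2 higher genes in leaf, both homologs of the transcription factor BZR1, at 24.5 and 81.5 FPKM in leaf for Ma03_g31200 and 13.1 and 67.3 FPKM for Ma09_g05500. The 2 lower genes of that search were chloroplast peroxiredoxins named BAS1, which are not brassinosteroid enzymes.

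**Figure D5:**
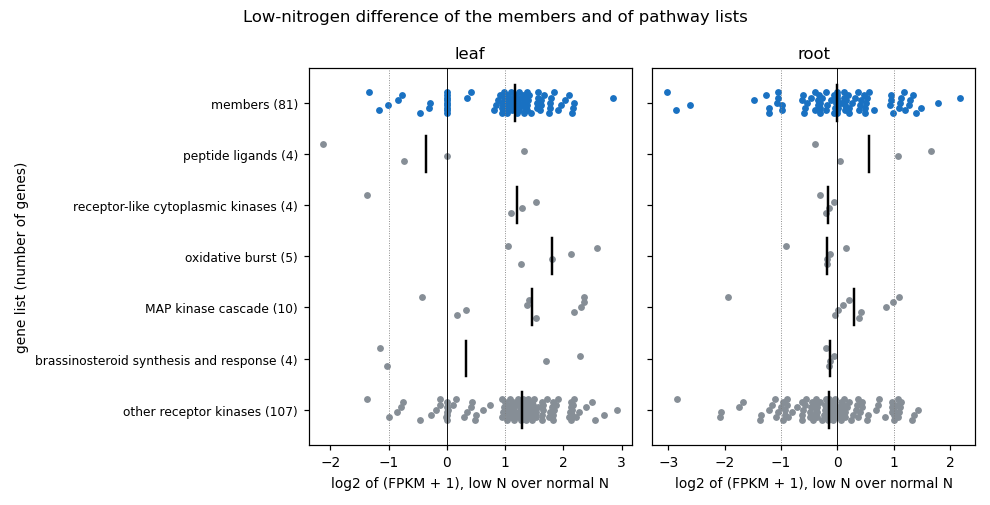
Low-N over normal-N difference of each gene as log2 of (FPKM + 1), in leaf (left) and root (right), for the 81 members and 6 lists of other genes of the tables, with a bar at the median over all genes shown and dotted lines at the size limit of 1. In leaf the members, the 5 oxidative burst genes and the 107 other receptor kinases lie mostly right of 1, and in root the same lists spread around 0.

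The authors' tables held only log2 ratios of at least 1.00 in size, with a false discovery rate (FDR) of at most 0.000997. Those values compare a library with a library and were not used as a test here. The members just inside the leaf limit were Ma09_g22650, at 4.85 and 9.75 FPKM in leaf, and Ma10_g00470, at 9.87 and 19.9. Just outside it, among members that the root table held, were Ma07_g26490, at 13.4 and 7.38 FPKM in leaf, and Ma01_g19860, at 3.09 and 1.99. In root, Ma07_g26490, at 44.8 and 22.2 FPKM, and Ma01_g11120, at 8.45 and 17.3, stood just inside, and Ma06_g10770, at 0.83 and 1.57, and Ma04_g37310, at 0.62 and 0.34, just outside.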

How the data were processed

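Libraries were made from fragmented poly(A) RNA primed with random hexamers, per the labels' protocols, which state no strand marking. BWA and Bowtie are named in the submitters' processing notes. How fragments were counted, on which build, and how the authors tested differences is not given in the sources used here. Per the file headers, the authors deposited an expected count and an FPKM value per gene for each library, and for each tissue a filtered table with the log2 ratio, its p-value and its FDR. Members and lists were chosen with earlier results of these data known. The length of 76 of the 81 members was divisible by 3, so lengths were read as coding lengths. Differences were log2 of (FPKM + 1), which understates those of weakly expressed genes. Folds used expected counts rounded to whole numbers, with exact 95% Clopper-Pearson intervals and a floor of 3 counts in a library at 0, 0.680 to 0.724 FPKM for a 1 kb gene. Counting error is all that intervals and floors cover. With 1 library per group, neither a test nor a p-value was computed. Named members were, within each role group and tissue, the 3 most positive and 3 most negative with at least 5 FPKM in the higher library that the tissue's table held, the 2 most abundant, those in both tables, the extremes of leaf over root at normal N and those nearest the tables' limits, which made 41. The other members in the text were named after their values were seen. Alternatives were other pseudocounts, filters, limits, scalings and member sets. Python 3.11.15, pandas 2.3.3, numpy 2.4.6 and scipy 1.17.1 were used, and the counting was tested on simulated data.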

Additional observations from a re-analysis of the deposited data

Results flagged for a closer look

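Of the members, 2 passed the size limit in opposite directions in leaf and root with at least 2 FPKM in the higher library of each tissue, in 1 library per group, and the difference between tissues was not tested. The FLORAL ORGAN NUMBER1 gene Ma03_g27840 had a log2 difference under low N that was 2.65 higher in leaf than in root. For the inactive kinase At3g03770 (Ma09_g02180), the leaf value minus the root value was -2.41. Phytosulfokine receptor 1-like Ma04_g32520 also passed the limit of 1 in opposite directions, with log2 differences of 1.28 and -1.05, but stayed under 2 FPKM in leaf.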

How the results depend on the processing

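No paired analysis was possible because each group had 1 library. For the same reason no replicate could be left out, and depth limits members under a few FPKM, whose intervals are wide. Across 12 counts and medians of members and 122 alternatives of them, 91 stayed close and 31 moved. A count stayed close within 1.5 times, and a median within its 95% binomial interval over the members' ranked values. No median changed sign, although that of root was 0 without a filter, and the balance of higher and lower members in root did turn, as given below. Of 782 values of named members under an alternative, 23 moved beyond the counting interval, and none past the size limit changed sign. Median-ratio scaling gave a leaf median of 1.12.

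A pseudocount of 5 gave 17 higher and 1 lower in leaf with a median of 0.75, 6 higher and 4 lower in root, and 8 higher in leaf than in root at normal N. A pseudocount of 0.1 gave a leaf median of 1.48. A filter of 10 FPKM left 23 higher in leaf, and for leaf over root 5 higher with a median of -1.71 at normal N and 20 higher with a median of 0.044 at low N. A size limit of 2 left 6 higher and 0 lower in leaf, 1 higher and 3 lower in root, 8 higher in leaf than in root at normal N and 14 lower at low N. Members with a kinase in the description gave 4 higher and 6 lower in root, and 20 and 16 lower in leaf than in root at normal and low N. Each tissue's own table gave a root median of 0.95. Of 2 member sets chosen after seeing the data, the one without extensins had 5 higher and 7 lower in root, where the main counts were 11 and 9. The 34 members with whole counts had 21 higher in leaf, 2 higher and 6 lower in root, 4 higher and 17 lower in leaf than in root at normal N, and 10 higher and 10 lower with a median of 0.052 at low N. Fewer genes or a stricter limit can only lower a count, but shares moved too. Members higher in root were 11 of the 52 at the level for counting in the main setting. They were 2 of 29 with whole counts and 4 of 38 with a kinase in the description. The cause of the moves was not tested.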
